A study of Mus musculus with 6 samples.

Results

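Collagens are secreted or membrane-bound proteins built of 3 chains that wind into a triple helix, and each chain has a gene of its own. Fibrillar collagens (types I, II, III, V, XI, XXIV and XXVII) form the banded fibrils of dermis, bone and cartilage. Type IV collagens form the sheet of basement membranes, and the other types link, coat or anchor these structures or span the cell membrane. Skin pigment cells lie on the epidermal basement membrane, while most fibrillar collagen of skin is made by fibroblasts.

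The collagen genes were taken by symbol (Col, a number, a, a number) from a table of RNA-seq read counts with 35275 gene IDs, which gave 44 genes. Of these, 11 are fibrillar, 6 are type IV chains of the basement membrane and 27 are of other types. With at least 10 reads in at least 3 of the 6 libraries required, 27 were detected: 8 fibrillar, 3 type IV and 16 other genes. The same 27 were among the 13602 genes that passed the abundance filter of the test, of which Col8a2 passed through its iBRD9 libraries alone.

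The cells were Melb-a, a single immortal line of mouse melanoblasts (pigment cell precursors) from C57BL/6J skin, so the results describe 1 line in culture. One group of 3 samples received 10 µM iBRD9, an inhibitor of the bromodomain protein BRD9 of the SWI/SNF chromatin remodeler, for 48 h. The other 3 samples received the vehicle DMSO for the same time. All 6 were kept meanwhile in the same differentiation medium, DMEM with 10% serum, 2 nM of the melanocortin analog NDP-alpha MSH and 200 nM of the protein kinase C activator phorbol-myristate-acetate.

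Libraries held 22846391 to 29680952 reads with iBRD9 and 23248475 to 26675006 with DMSO. All 8 markers of the melanocyte lineage were present, with a summed level of 15099 to 16631 CPM with iBRD9 and 15823 to 17935 CPM with DMSO. The sum is mostly Dct, which rose (log2 fold change 0.31), and Tyrp1, which fell (-0.66). Tyr (-2.61, with 87.8 against 537 CPM), Sox10 (-0.92) and Mlana (-0.62) fell as well, and Pmel (0.20), Mitf (-0.10) and Kit (-0.11) did not pass. Markers of other skin cells were near the floor for most list members. Of 7 keratinocyte markers 5 (Krt5, Krt14, Krt1, Trp63 and Dsg3) had under 10 reads in every library, 2 of them (Krt5 and Krt1) none, and the list summed to 5.53 to 6.01 CPM with iBRD9 and 9.82 to 10.6 CPM with DMSO. Of 12 fibroblast markers 5 (Thy1, Dpt, Twist2, Pi16 and Mfap5) were under 10 reads in every library, with Dpt at 0. The fibroblast list summed to 128 to 142 CPM with iBRD9 and 57.2 to 70.2 CPM with DMSO, most of it from decorin (Dcn). The endothelial list summed to 52.9 to 55.9 CPM with iBRD9 and 82.8 to 129 CPM with DMSO, mostly from Vwf. Its tested members went opposite ways: Vwf fell (log2 fold change -1.10) and Kdr rose (2.07, with 3.98 against 0.941 CPM), while Cdh5 and Emcn had under 10 reads in every library. The list of macrophages and other leukocytes, with Ptprc and Cd3e at 0, summed to 5.49 to 6.23 CPM with iBRD9 and 6.12 to 7.81 CPM with DMSO. Of its tested members Csf1r rose (2.60, with 1.71 against 0.279 CPM) and Cd68 fell (-0.69).

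Collagen transcripts were scarce in both groups, at 0.0384% to 0.0401% of all reads with iBRD9 and 0.0360% to 0.0425% with DMSO. The summed share overlapped between the groups, but the parts of it taken by each class did not. Type IV genes took 4.81% to 5.38% of the collagen reads with iBRD9, against 16.9% to 21.2% with DMSO. Fibrillar genes took 34.8% to 36.7% with iBRD9, against 24.0% to 24.9% with DMSO. Genes of other types took 58.48% to 59.86% with iBRD9 and 53.85% to 58.41% with DMSO, where the groups almost touched. Some single genes differed by as much as their classes: Col4a3 held 3.02% to 3.49% of collagen reads with iBRD9 and 14.5% to 19.2% with DMSO, and Col5a1 held 18.7% to 20.4% and 4.67% to 6.58%. The share of Col11a2 overlapped, at 6.70% to 7.61% with iBRD9 and 6.33% to 7.19% with DMSO.

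**Figure D1:**
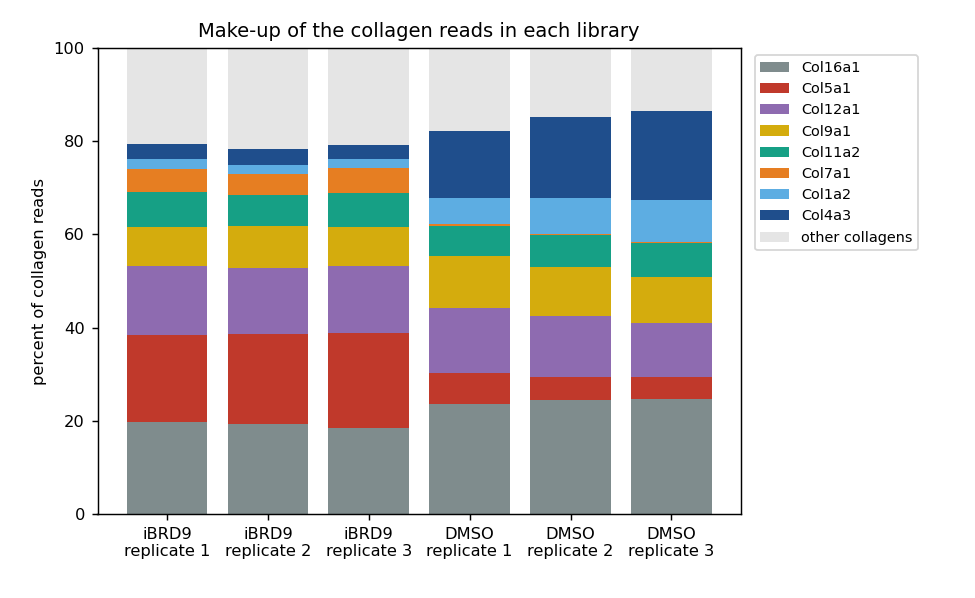
Percent of all collagen reads taken by 8 genes and by the remaining collagens (stacked bars) in each of the 3 iBRD9 and 3 DMSO libraries. Col5a1 holds 18.7% to 20.4% in the iBRD9 libraries and 4.67% to 6.58% in the DMSO libraries, and Col4a3 3.02% to 3.49% and 14.5% to 19.2%.

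The comparison of iBRD9 with DMSO asks which collagen transcripts differ when the inhibitor is present during differentiation. By edgeR's quasi-likelihood test at an adjusted p under 0.05 over all genes, 9 collagens rose with iBRD9 and 8 fell. These 17 are 63.0% of the 27 tested, close to the 60.7% called among all tested genes, so the number of calls does not set the collagens apart. By class, 62.5% of the fibrillar, 66.7% of the type IV and 62.5% of the other tested collagens were called. The groups did not overlap in CPM for 19 of the 27 (70.4%), against 68.0% of all tested genes. Calls of at least 2-fold took a larger share of the collagens. At least 2-fold rises were called in 8 collagens (29.6%) and at least 2-fold falls in 3 (11.1%), against 9.41% and 5.46% of all tested genes. Among the 10286 tested genes within the collagens' own range of mean log2 CPM (-1.01 to 6.41), these shares were 10.9% and 5.71%. In that range 58.5% of genes were called (30.8% higher and 27.8% lower), and 65.8% did not overlap. That range holds most tested genes, so it matches abundance only loosely. The 8 rises of at least 2-fold include Col8a2, which was tested only through its iBRD9 libraries. The difference in these shares was not tested. The median log2 fold change of the tested collagens was 0.07, and that of all tested genes 0.0071. In bulk RNA, fewer cells of a type and less RNA per cell cannot be told apart.

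**Figure D2:**
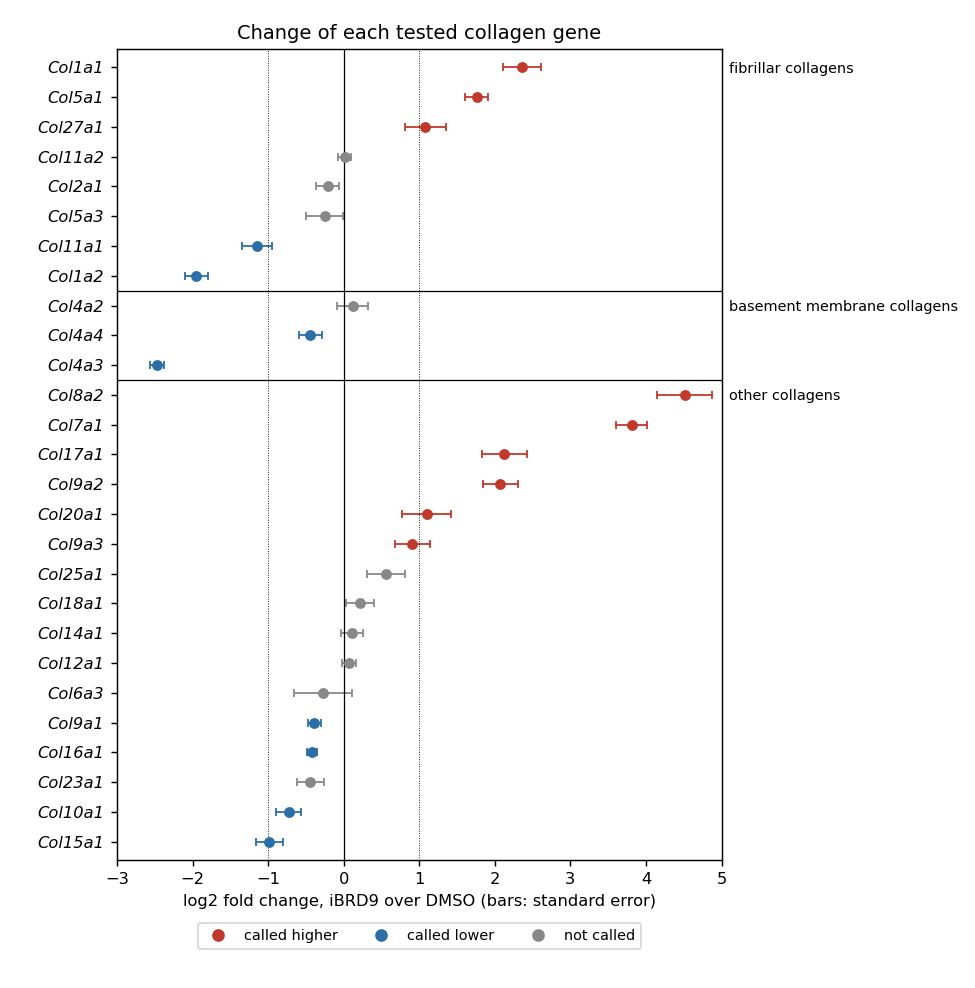
Log2 fold change (iBRD9 over DMSO, horizontal axis) of the 27 tested collagen genes, ordered by value within each class; bars are the standard error, red and blue mark genes called higher and lower at an adjusted p under 0.05, and dotted lines mark 2-fold. Values run from -2.47 for Col4a3 to 4.51 for Col8a2.

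Among the fibrillar collagens, 3 of 8 tested genes rose (Col1a1, Col5a1 and Col27a1), 2 fell (Col1a2 and Col11a1) and 3 did not pass (Col2a1, Col5a3 and Col11a2), with a median log2 fold change of -0.10. Col5a1 encodes the α1 chain of type V collagen, a minor fibril collagen that starts and limits the growth of type I fibrils. It stood at 72.1, 71.6 and 77.4 CPM in the iBRD9 libraries and 28.2, 18.5 and 18.6 CPM in the DMSO libraries. The groups were far apart, with DMSO replicate 1 the highest of its group. Its log2 fold change was 1.76 (SE 0.15, adjusted p = 4.14e-05), or 3.39-fold. Its exons share 99 and 113 bases with the opposite-strand genes 2810430I11Rik and Gm13372, which had 44 and 56 reads over all libraries. The α2 chain that usually joins it, Col5a2, had 3 to 4 reads per library with iBRD9 and 0 to 5 with DMSO, and was not tested. Col5a3, another type V chain, stood at 2.68 ± 0.355 CPM with iBRD9 and 3.20 ± 1.04 CPM with DMSO (SD, n = 3) and did not pass (-0.25, 95% interval -0.80 to 0.30, adjusted p = 0.392).

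The chains of type I collagen, the main collagen of dermis and bone, went opposite ways. Col1a2, which encodes the α2 chain, stood at 8.44, 7.20 and 7.26 CPM with iBRD9 and 23.9, 28.9 and 35.9 CPM with DMSO. Every iBRD9 library was below every DMSO library, and the difference on the log2 scale was -1.95 (SE 0.16, adjusted p = 2.92e-05). Col1a1, which encodes the α1 chain, stood at 3.15, 2.88 and 4.52 CPM with iBRD9 and 0.651, 0.670 and 0.717 CPM with DMSO. It was near the floor with DMSO, at 15 to 17 reads per library, and rose to 72 to 107 reads with iBRD9 (a log2 difference of 2.36, SE 0.25, adjusted p = 0.000111). Per length of exon, the ratio of Col1a2 to Col1a1 was 1.42, 1.32 and 0.849 in the iBRD9 libraries and 19.4, 22.8 and 26.4 in the DMSO libraries, with no overlap. Most type I collagen protein holds more α1 than α2 chains, but the ratios here are of RNA. Their size depends on the lengths used, the union of all annotated exons (12426 bases for Col1a2 and 6563 for Col1a1). Col3a1, whose type III fibrils mix with type I in skin, had at most 7 reads in any library.

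Col1a2 is shown with the stretch before its first annotated exon, since its transcript parts from that of Col1a1. The sequence lies at chr6:4505370-4505492 on the plus strand of GRCm38.p6 (RefSeq), and capitals mark the GC box GGGCGG, a motif of SP family factors.
Col1a2: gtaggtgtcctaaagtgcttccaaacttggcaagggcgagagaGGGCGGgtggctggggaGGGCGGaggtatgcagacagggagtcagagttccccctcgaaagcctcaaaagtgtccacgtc

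Type XI collagen sits inside cartilage fibrils, and its 3 chains come from Col11a1, Col11a2 and Col2a1. Col11a1 stood at 2.18, 1.80 and 2.36 CPM with iBRD9 and 5.90, 4.22 and 3.96 CPM with DMSO, with no overlap. It fell by 1.15 on the log2 scale (SE 0.20, adjusted p = 0.00152). The other two did not pass. Col11a2 stood at 29.4, 24.9 and 28.1 CPM with iBRD9 and 27.2, 25.9 and 28.7 CPM with DMSO, with a log2 fold change of 0.01 and a 95% interval of -0.18 to 0.21, the narrowest around 0 of this class. Col2a1 stood at 4.62 ± 0.309 and 5.35 ± 0.881 CPM (SD, n = 3; -0.21, adjusted p = 0.252). Col27a1, a fibrillar collagen best known from cartilage, stood at 13.2, 12.8 and 12.5 CPM with iBRD9 and 9.38, 4.93 and 3.92 CPM with DMSO. DMSO replicate 1 lay between the other DMSO libraries and the iBRD9 group. The log2 fold change of Col27a1 was 1.08 (SE 0.27, adjusted p = 0.00792). It was 1.52 without DMSO replicate 1, and under 2-fold without DMSO replicate 2 (0.94) or DMSO replicate 3 (0.84). Col24a1 had at most 1 read in a library.

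The summed CPM of the fibroblast list given above, most of it from Dcn, was higher with iBRD9, as were Col1a1 and Col5a1, while Col1a2 was lower. The tested members of that list were not uniform: Dcn rose (log2 fold change 1.23) and Postn rose (0.92), Fap fell (-2.21), while Pdgfra (0.13), Pdgfrb (0.16) and Lum (-0.06) did not pass. Their part in the collagen values was not tested.

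**Figure D3:**
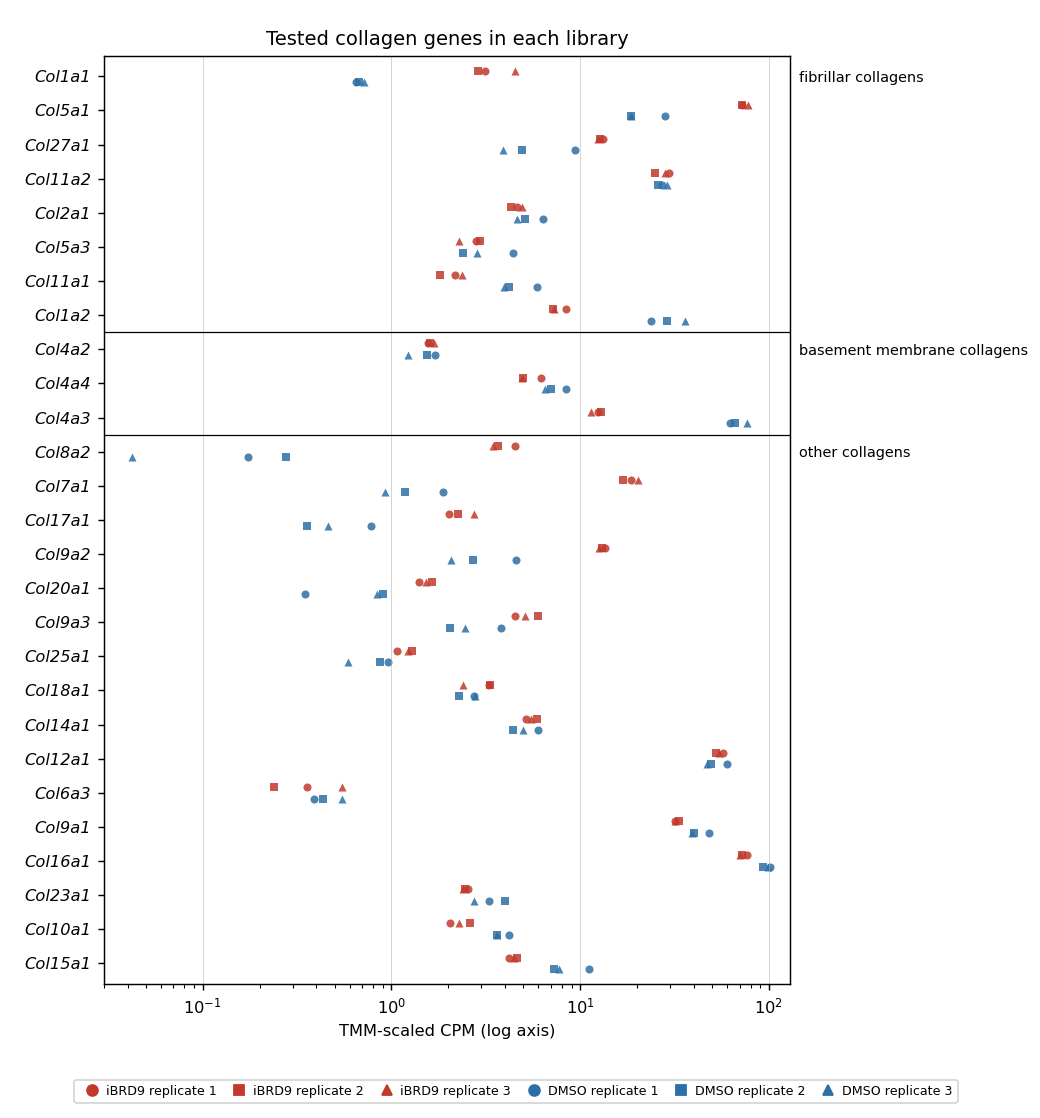
TMM-scaled CPM (log axis) of the 27 tested collagen genes in each library, 3 iBRD9 (red) and 3 DMSO (blue), with the replicate given by the marker shape and genes grouped by class. The groups do not overlap in 19 of the 27 genes; Col7a1 lies at 16.8 to 20.3 CPM with iBRD9 and 0.927 to 1.87 CPM with DMSO.

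Among the 6 type IV genes, Col4a3 and Col4a4 fell, Col4a2 did not pass, and 3 were not detected. None rose (0 with edgeR, and at an unadjusted p under 0.05 likewise 0). The chains α3, α4 and α5 form a trimer of specialised basement membranes, such as that of the kidney glomerulus. Col4a3 held more reads than any collagen but Col16a1 in each DMSO library. It stood at 12.5, 12.9 and 11.5 CPM with iBRD9 against 62.1, 66.0 and 76.8 CPM with DMSO. The groups were separated by a wide gap, and the log2 fold change was -2.47 (SE 0.098, adjusted p = 1.77e-06), the largest fall of any collagen. Col4a4 stood at 6.20, 4.96 and 4.90 CPM with iBRD9 and 8.38, 6.98 and 6.53 CPM with DMSO. It fell by 0.44 (SE 0.15, adjusted p = 0.0310), and the call was lost without DMSO replicate 2 (-0.48, adjusted p = 0.0545), without iBRD9 replicate 2 (-0.39, adjusted p = 0.107), without iBRD9 replicate 3 (-0.38, adjusted p = 0.104) and with library size alone (-0.34, adjusted p = 0.0944). Over all its alternatives the adjusted p ran between 0.0177 and 0.107. Col4a5, the third chain of that trimer, had 0 to 3 reads with iBRD9 and 2 to 5 with DMSO.

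Col4a3 and Col4a4 are neighbours on chromosome 1 whose transcripts start close together and run apart (head to head), a layout that all 3 neighbouring pairs of type IV genes share. Per length, Col4a3 exceeded Col4a4 by 2.15, 2.77 and 2.50 times in the iBRD9 libraries and by 7.89, 10.1 and 12.5 times in the DMSO libraries, with no overlap. This pair was chosen after its values were seen. Without strand, reads of the overlapping C430014B12Rik transcript (563 shared exonic bases, opposite strand) cannot be told apart from those of Col4a3. That gene was itself counted at 1.28 ± 0.201 CPM with iBRD9 and 2.03 ± 0.314 CPM with DMSO (SD, n = 3). The stretch between the RefSeq starts of the pair is shown because both genes read out from it. It lies at chr1:82586850-82586920 of GRCm38.p6 and is written on the minus strand, towards Col4a4. It holds 71 bases, 69.0% of them G or C. None of the motifs described further on has a match in these bases, so there are no capitals.
Col4a4: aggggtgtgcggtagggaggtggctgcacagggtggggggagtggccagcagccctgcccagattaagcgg

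The most widespread type IV chains, α1 and α2, were scarce. Col4a2 stood at 1.56, 1.60 and 1.69 CPM with iBRD9 and 1.69, 1.54 and 1.22 CPM with DMSO, with overlap (log2 fold change 0.12, 95% interval -0.34 to 0.58, adjusted p = 0.625). Its partner Col4a1 had 12, 7 and 5 reads in the iBRD9 libraries and 2, 4 and 1 in the DMSO libraries. It reached 10 reads in 1 library only and was not detected. Col4a6 had at most 2 reads in a library.

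**Figure D4:**
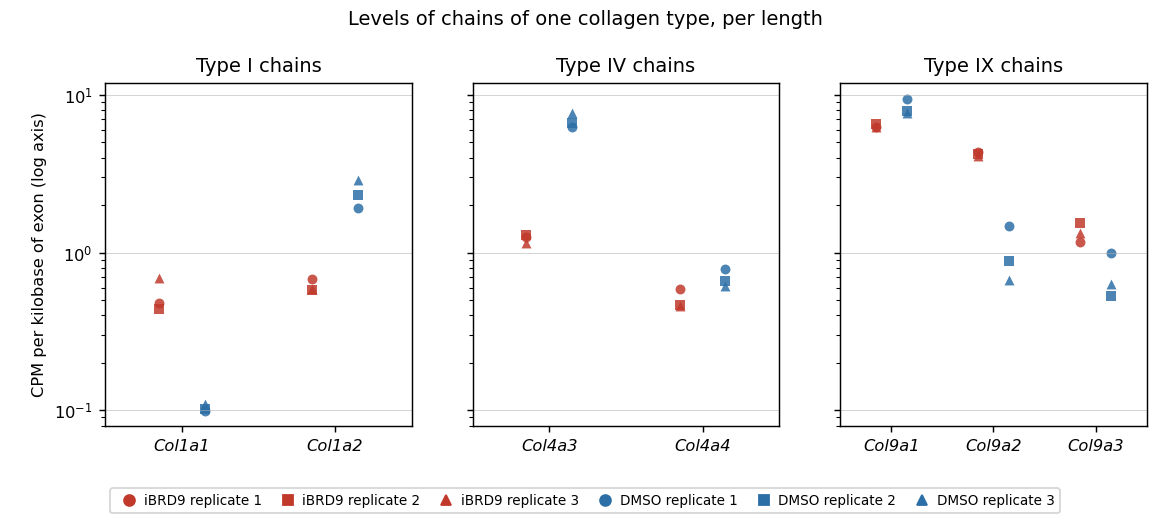
CPM per kilobase of exon (log axis) of chains that belong to types I, IV and IX, in 3 iBRD9 (red) and 3 DMSO (blue) libraries. Col1a2 is at 0.849 to 1.42 times Col1a1 in the iBRD9 libraries and 19.4 to 26.4 times in the DMSO libraries; Col4a3 is at 2.15 to 2.77 times Col4a4 with iBRD9 and 7.89 to 12.5 times with DMSO, and Col9a2 lies below Col9a1 in every library.

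Of the 16 tested genes of other types, 6 rose, 4 fell and 6 did not pass (median log2 fold change 0.16). Col7a1 encodes type VII collagen, the anchoring fibril that ties the epidermal basement membrane to the dermis. It stood at 18.6, 16.8 and 20.3 CPM in the iBRD9 libraries and 1.87, 1.18 and 0.927 CPM in the DMSO libraries. That is 421 to 573 reads against 22 to 43, far apart, and the gene rose by 3.81 on the log2 scale (SE 0.20, adjusted p = 4.92e-06). Col17a1 encodes a membrane-spanning collagen of hemidesmosomes, the junctions of keratinocytes with the basement membrane. It stood at 2.01, 2.24 and 2.74 CPM with iBRD9 and 0.781, 0.355 and 0.464 CPM with DMSO, with no overlap (2.12, SE 0.30, adjusted p = 0.000477). Keratinocytes express both genes. Of their 7 markers 2 were tested: Cdh1 fell (-1.89), and Krt10 stood at 3.88 ± 0.393 CPM with iBRD9 and 3.83 ± 0.314 CPM with DMSO (SD, n = 3; 0.02, adjusted p = 0.899). Krt5 and Krt1 were at 0 in every library. The part of these cells in the collagen values was not tested.

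As the largest rise after that of Col8a2, Col7a1 is shown with the 250 bases before its start. They lie at chr9:108953336-108953585 on the plus strand of GRCm38.p6 (RefSeq), and capitals mark the CCAAT box (here on the opposite strand, so its reverse complement is in capitals) and the GC box GGGCGG.
Col7a1: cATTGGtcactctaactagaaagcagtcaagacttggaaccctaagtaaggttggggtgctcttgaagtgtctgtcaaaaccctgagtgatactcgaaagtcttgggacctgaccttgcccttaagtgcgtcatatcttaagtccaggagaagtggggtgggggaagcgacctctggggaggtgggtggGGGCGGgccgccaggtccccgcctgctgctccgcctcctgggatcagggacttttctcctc

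Short-chain network collagens also moved. Col8a2, of a collagen known from the corneal Descemet membrane, had 139, 92 and 82 reads with iBRD9 and 4, 7 and 1 with DMSO. These are 4.51, 3.68 and 3.46 CPM against 0.174, 0.276 and 0.0422 CPM. The fitted rise of 4.51 (log2, SE 0.36, adjusted p = 3.07e-05) was the largest of any collagen, but it rests on DMSO values at the floor (5.12 without DMSO replicate 2), and the gene was tested only because of its iBRD9 reads. Its partner Col8a1 had at most 4 reads in a library. Col10a1, of the growth plate, stood at 2.31 ± 0.279 CPM with iBRD9 and 3.82 ± 0.337 CPM with DMSO (SD, n = 3) and fell by 0.73 (SE 0.16, adjusted p = 0.00483). Its exons touch those of the opposite-strand gene Nt5dc1 over 18 bases, and Nt5dc1 fell as well (-0.66).

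Fibril-associated collagens (FACITs), which coat larger fibrils, made up 7 of the tested genes, of which 3 rose, 2 fell and 2 did not pass. The called share was 71.4% of these 7, against 60.7% of all tested genes, and the difference was not tested. Type IX collagen joins α1, α2 and α3 chains, and they parted. Col9a1 stood at 32.0, 33.2 and 31.9 CPM with iBRD9 and 48.0, 40.1 and 39.1 CPM with DMSO and fell by 0.39 (SE 0.088, adjusted p = 0.00527). Col9a2 stood at 13.5, 13.1 and 12.6 CPM with iBRD9 and 4.56, 2.72 and 2.07 CPM with DMSO and rose (2.07, SE 0.23, adjusted p = 0.000148). Col9a3 stood at 4.51, 5.96 and 5.11 CPM with iBRD9 and 3.82, 2.05 and 2.44 CPM with DMSO and rose (0.91, SE 0.23, adjusted p = 0.00943). In all 3 the groups did not overlap. The exons of Col9a3 share 234 bases with Tcfl5 on the opposite strand, which had 5 reads over all libraries. Per length, Col9a1 exceeded Col9a2 by 1.44 to 1.55 times in the iBRD9 libraries and by 6.43 to 11.6 times in the DMSO libraries, and Col9a3 by 4.24 to 5.39 and 9.55 to 14.9 times. These comparisons were also chosen after the values were seen.

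The other FACITs tested were Col16a1, Col12a1, Col14a1 and Col20a1. Col16a1, the most abundant collagen per length in both groups, stood at 76.6, 71.7 and 70.1 CPM with iBRD9 and 101.8, 92.7 and 98.6 CPM with DMSO and fell by 0.42 (SE 0.065, adjusted p = 0.000707). Col12a1, which bridges type I fibrils, stood at 57.1, 52.4 and 54.7 CPM with iBRD9 and 59.7, 49.6 and 46.9 CPM with DMSO, with overlap (0.07, 95% interval -0.14 to 0.29, adjusted p = 0.522). Without DMSO replicate 1 it passed (0.17, adjusted p = 0.00629, with 0.00629 to 0.978 over its alternatives). Col14a1 stood at 5.54 ± 0.366 and 5.13 ± 0.798 CPM (SD, n = 3; 0.11, adjusted p = 0.528). Col20a1 stood at 1.40, 1.64 and 1.52 CPM with iBRD9 and 0.347, 0.907 and 0.843 CPM with DMSO and rose (1.10, SE 0.32, adjusted p = 0.0170). The call was lost when iBRD9 replicate 2 was left out (1.04, adjusted p = 0.0608) and when iBRD9 replicate 3 was (1.10, adjusted p = 0.0505), with 0.00899 to 0.0608 over all its alternatives. It shares 79 exonic bases with the more abundant BX649560.1 on its own strand, so some of its reads are uncertain.

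Collagens XV and XVIII lie at the outer face of basement membranes, and type XVIII is the source of endostatin. Col15a1 stood at 4.42 ± 0.212 CPM with iBRD9 and 8.75 ± 2.13 CPM with DMSO (SD, n = 3), with no overlap, and fell by 0.98 (SE 0.18, adjusted p = 0.00167). Col18a1 stood at 3.00 ± 0.517 and 2.60 ± 0.273 CPM (SD, n = 3) and did not pass (0.21, adjusted p = 0.342). Among membrane-spanning collagens other than Col17a1, Col23a1 stood at 2.46 ± 0.0653 CPM with iBRD9 and 3.34 ± 0.623 CPM with DMSO (-0.44, adjusted p = 0.0596). It passed without DMSO replicate 1 (-0.46, adjusted p = 0.0315) and without DMSO replicate 3 (-0.57, adjusted p = 0.0278), with 0.0278 to 0.220 over its alternatives. Col25a1, best known from neurons, stood at 1.19 ± 0.108 and 0.804 ± 0.191 CPM (0.56, adjusted p = 0.0890). Type VI collagen, the beaded filament network of most connective tissue, was represented by Col6a3 at 0.382 ± 0.156 and 0.458 ± 0.0813 CPM (-0.27, adjusted p = 0.560), the member just inside the detection limit. Col6a1 and Col6a2 had at most 7 and 5 reads in a library.

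The 17 collagens below the detection limit had at most 12 reads in any library. No read was seen for Col22a1 and Col6a5 in all 6 libraries. A count of 0 in a library allows up to 3 reads, so low expression is not excluded at this depth. Col4a1, given above, was nearest to the limit. Col19a1 had 7, 4 and 9 reads with iBRD9 and 3, 3 and 4 with DMSO. The others without values above are Col6a4, Col6a6, Col13a1, Col26a1 and Col28a1, at most 6 reads in a library.

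Per kilobase of exon, the order of the collagens differed between the groups. With iBRD9 it ran Col16a1 (10.8 ± 0.503 CPM per kilobase), Col5a1 (8.68 ± 0.378), Col9a1 (6.39 ± 0.147), Col9a2 (4.23 ± 0.148), Col11a2 (3.995 ± 0.342) and Col12a1 (3.59 ± 0.154; SD, n = 3). There the ranges of Col9a2, Col11a2 and Col12a1 at 1 SD ran into each other, from each gene to the next. With DMSO it ran Col16a1 (14.5 ± 0.686), Col9a1 (8.36 ± 0.961), Col4a3 (6.85 ± 0.761), Col11a2 (3.97 ± 0.204), Col12a1 (3.42 ± 0.444), Col5a1 (2.57 ± 0.655) and Col1a2 (2.38 ± 0.485). At 1 SD Col9a1 overlapped with Col4a3, and from Col11a2 to Col1a2 each gene overlapped with the next. Col4a3 was in place 9 and Col1a2 in place 15 with iBRD9.

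The base composition of the transcripts differed in median between the collagens that rose and those that fell, with overlap. The 9 collagens that rose had 56.1% to 62.7% G or C (median 59.1%) in their longest coding transcript, and the 8 that fell 48.0% to 61.4% (median 51.7%). The 10 that were not called had 45.9% to 62.9% (median 57.8%), close to those that rose in median. Over the 27 tested collagens Spearman's rho between GC content and log2 fold change was 0.41, and over 12147 tested genes with a value it was 0.07. These genes share libraries and are not independent. Of the 3037 tested genes with the highest GC content, 35.7% were called higher and 28.0% lower, against 28.5% and 32.8% of the 3037 with the lowest. Its part in the collagen values was not tested.

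Upstream sequences were at hand for 21 of the 27 tested collagens (RefSeq, GRCm38.p6, 250 bases before the start). Both strands were searched for the GC box GGGCGG, for the box CCAAT, for the E-box form CACGTG, for the related form CATGTG (MITF can bind both) and for the AP-1 site TGANTCA. None of these motifs contains another. GGGCGG was found in 14 of the 21, against 32.9% of 27025 promoters. It was in 5 of 7 promoters of collagens that rose and 3 of 7 of those that fell. CCAAT was found in 9 of the 21, against 34.5%, including Col7a1 and Col1a2. The match of Col1a2 lies downstream of the stretch printed above, which is only part of the window searched. CATGTG was found in Col11a2 alone, while CACGTG and TGANTCA were found in none (0 of 21), against 12.2%, 6.05% and 6.87% of all promoters. The 27025 promoters include those of genes that were not tested here, while the 21 are all of tested genes, so these shares are not like for like.

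Genes that act on collagen were examined as 4 lists. Of the 20 tested genes of collagen folding and modification, 4 rose and 9 fell (median -0.12; 29.8% and 30.9% of all tested genes were called higher and lower). Serpinh1, the collagen chaperone HSP47, stood at 482, 457 and 474 CPM with iBRD9 and 729, 758 and 739 CPM with DMSO, with no overlap, and fell by 0.66 (SE 0.054, adjusted p = 3.49e-05). Colgalt2, which adds galactose to hydroxylysine, fell by 1.32 (3.51 ± 0.257 against 8.77 ± 1.61 CPM, SD, n = 3), and the procollagen export gene Mia2 by 0.39. Small rises were called for the prolyl hydroxylase P4ha2 (0.30), the export receptor Mia3 (0.28) and the lysyl hydroxylase Plod2 (0.21), each lost without any 1 library other than DMSO replicate 1. The fourth, P3h3, named after its value was seen, stood at 1.33, 1.28 and 2.03 CPM with iBRD9 and 0.0868, 0.0789 and 0.126 CPM with DMSO (3.92), near the floor. P3h3, counted among the 4 rises, was tested only because of its iBRD9 reads. The list's count of rises was 1 in each of those 5 settings, and its count of falls was 5 without iBRD9 replicate 3.

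In procollagen processing and crosslinking, 2 of 6 tested genes rose and 2 fell (median -0.35), against 29.8% and 30.9% of all tested genes. Pcolce, which enhances cleavage of the procollagen C-propeptide, stood at 106, 99.6 and 90.8 CPM with iBRD9 and 236, 243 and 240.2 CPM with DMSO and fell by 1.28 (SE 0.067, adjusted p = 4.71e-06). The lysyl oxidase relative Loxl3 fell by 0.39. Bmp1, the C-propeptide protease itself, rose by 0.16 (adjusted p = 0.0375, with 0.00312 to 0.125 over its alternatives), and was lost without any 1 library other than DMSO replicate 1, leaving 1 rise. Its relative Tll1, named after its value was seen, rose near the floor (1.03). Lox, Adamts2, Adamts3 and Adamts14 had under 10 reads in every library.

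Of 9 tested fibril-associated proteins, 3 rose and 3 fell (median -0.06), against 29.8% and 30.9% of all tested genes. Decorin (Dcn), a proteoglycan that binds type I fibrils, stood at 125, 124 and 112 CPM with iBRD9 and 43.1, 53.1 and 57.5 CPM with DMSO and rose (1.23, SE 0.11, adjusted p = 3.88e-05). Tenascin-X (Tnxb), which spaces fibrils, rose by 4.29, with DMSO values at the floor (0.213 ± 0.158 CPM, against 4.17 ± 0.300 CPM with iBRD9, SD, n = 3), and the proteoglycan Epyc by 1.00. Tnxb, counted among the 3 rises, was tested only because of its iBRD9 reads. Ogn (-1.70), the collagen-binding matrix protein Sparc (-0.79) and Prelp (-0.64) fell.

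Among 7 tested collagen receptors, 3 rose and 2 fell (median -0.0072), against 29.8% and 30.9% of all tested genes. The integrin chain Itga1, which prefers type IV collagen, stood at 16.9, 18.2 and 16.7 CPM with iBRD9 and 74.7, 75.5 and 80.7 CPM with DMSO, far apart, and fell by 2.16 (SE 0.069, adjusted p = 9.33e-07). The receptor kinase Ddr2, which binds fibrillar collagens, stood at 26.2, 16.1 and 15.9 CPM with iBRD9 and 46.7, 80.8 and 94.8 CPM with DMSO and fell by 1.93 (SE 0.28, adjusted p = 0.000560). The chains that rose, Itga10 (1.71), Itga11 (1.55) and Itga2 (0.88), were named after their values were seen and averaged at most 2.33 CPM in either group. Their common partner Itgb1 stood at 786 ± 5.79 and 812 ± 29.8 CPM (SD, n = 3; -0.05, adjusted p = 0.482), and Ddr1 at 143 ± 4.32 and 143 ± 0.697 CPM (adjusted p = 0.911).

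**Figure D5:**
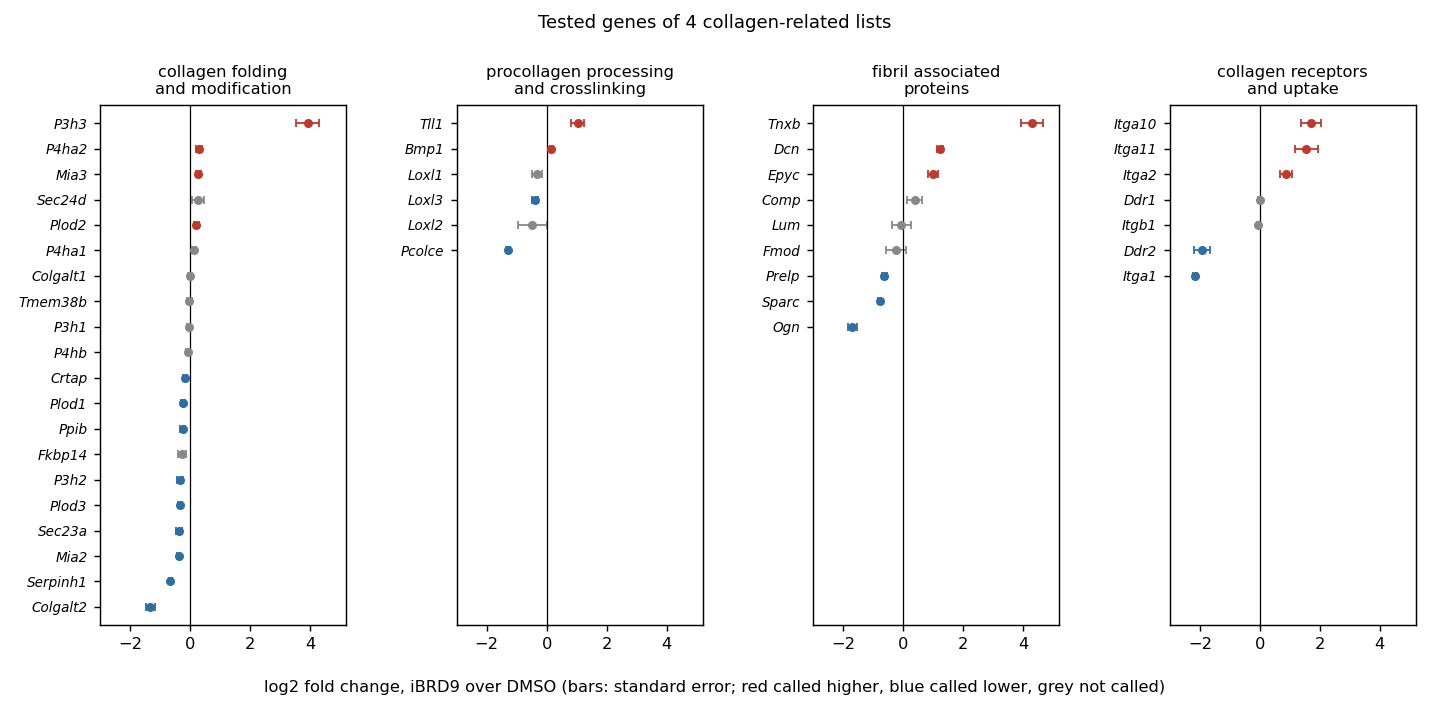
Log2 fold change (iBRD9 over DMSO, horizontal axis) of the tested genes of 4 lists of genes that act on collagen; bars are the standard error and colours mark the call at an adjusted p under 0.05. Itga1 (-2.16), Ddr2 (-1.93), Ogn (-1.70), Colgalt2 (-1.32) and Pcolce (-1.28) lie furthest left, and Tnxb (4.29) and P3h3 (3.92) furthest right.

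DMSO replicate 1 was far from its group over the whole library, not only in these genes. Its chi-square per degree of freedom was 29.2 and 37.55 with DMSO replicates 2 and 3, which gave 3.06 between them. To a lesser degree iBRD9 replicate 1 also stood apart, at 6.327 and 6.335 with iBRD9 replicates 2 and 3, which gave 1.93 between them. Omitting DMSO replicate 1 gave 5159 rises and 5152 falls among 13933 tested genes, against 4057 and 4205 among 13602 in the main fit. Omitting any other single library gave 3235 to 3517 rises and 3558 to 3805 falls. The 60.7% called among all tested genes therefore depends on the libraries used. Among the 17 called collagens DMSO replicate 1 was the DMSO library nearest to the iBRD9 group in 8, replicate 2 in 4 and replicate 3 in 5. Without DMSO replicate 1, the log2 fold changes of Col7a1 (4.12), Col5a1 (1.98) and Col4a3 (-2.54) were larger than in the main fit. Those of other called collagens were smaller, among them Col11a1 (-0.96), Col20a1 (0.78), Col15a1 (-0.78) and Col9a1 (-0.30). Col11a1 and Col20a1 were then under 2-fold.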

How the data were processed

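RNA-seq was done on 3 iBRD9 and 3 DMSO samples, independent per the labels. Per the labels' protocols, mRNA was pulled down on polyT beads and reverse transcription used random hexamers. No strand marking is described. The authors deposited raw read counts for each Ensembl gene. The submitters' processing notes name CASAVA 1.8.2, Bowtie2 2.4.5 and the build GRCm39. Which program and annotation did the counting is not given in the sources used here. Symbols (34490 IDs), exon lengths, overlaps and GC content came from GENCODE M21 of GRCm38, an older build. The length of a gene is the union of all its annotated exons, which can exceed that of its main transcript. For both reasons per-length values are approximate. Reads shared between related genes are uncertain.

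Genes were kept by filterByExpr with a minimum count of 10, scaled by TMM, and tested with edgeR 4.0.16 (quasi-likelihood F-test, robust, treatment as sole term, two-sided, Benjamini-Hochberg over all tested genes) under R 4.3.3. CPM are TMM-scaled. The standard error is the log2 fold change over the square root of F. The procedure was run on simulated counts, where 95 of 99 genes changed 2-fold were recovered in the right direction, with 7 false among 181 calls. There few genes changed, all genes had the same dispersion and no library stood apart. It therefore does not speak for the calls in these data. No replicates were duplicates (chi-square per degree of freedom 1.93 to 37.5). Alternatives were DESeq2 1.42.0 (Wald test, and its size factors in edgeR), library size, limma-voom (limma 3.58.1), 2 filters, the replicate block, a stricter threshold (0.01) and fits that omit 1 library. Depth limits the precision of genes under about 1 CPM.

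The members, their classes and the gene lists were chosen with earlier results of these data known. Every collagen was accounted for. Values in every library were given for called members of at least 2-fold, the most and least changed of each class, and some partners. For the other lists, the 3 largest called rises and falls were named, where the mean log2 CPM reached 1.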

Additional observations from a re-analysis of the deposited data

How the results depend on the processing

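Of the 17 called collagens, 15 kept direction and call under all 14 alternatives, and Col4a4 and Col20a1 kept direction but not always the call. Fibrillar counts stayed at 3 higher and 2 lower without any 1 library. Falls of type IV genes numbered 1 with library size alone and at an adjusted p under 0.01, and 1 to 2 without any 1 library. For folding and modification, leaving out libraries gave 1 to 5 rises and 5 to 9 falls, and an adjusted p under 0.01 gave 1 and 5. Rises in processing and crosslinking numbered 1 with DESeq2, with no filter, with the replicate block and at an adjusted p under 0.01, and 1 to 2 without any 1 library. Without 1 library at a time, uncalled genes near 0 changed sign: Col4a2 ran between -0.0070 (without DMSO replicate 3) and 0.21, Col12a1 between -0.0034 (without DMSO replicate 3) and 0.17, Col5a3 between -0.43 and 0.034 (without DMSO replicate 1), and Col11a2 between -0.044 (without iBRD9 replicate 1) and 0.077, also below 0 without iBRD9 replicate 3 (-0.0077) or DMSO replicate 2 (-0.03). The cause was not tested. Same-numbered samples deviated together with correlations of 0.118, 0.060 and 0.025, which does not show pairing, and iBRD9 replicate 3 correlated best with DMSO replicate 2. With the replicate block, Bmp1 lost its call (0.16, adjusted p = 0.0784). Library size alone moved the median log2 fold change of all genes to 0.11. Collagens under 10 reads are beyond this depth.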
